A study of Mus musculus with 4 samples.

Results

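Cdo1, Selenbp1, Csad, Cth, Cbs, Mpst, Ethe1 and Suox encode 8 enzymes that handle sulfur from methionine and cysteine or the sulfur compounds made from them, and their transcripts were compared between mouse mammary colonies grown with and without Wnt3A. They are 8 of the 18193 genes with a probe set of their own on the array. Every probe set whose only annotated gene symbol was one of these names was taken, which gave 10 probe sets out of the 45037 on the array other than its controls. Cbs and Selenbp1 had 2 probe sets each and the other 6 genes had 1. Cdo1 and Selenbp1 were selected on their Wnt3A minus control differences, which were among the most negative in this same comparison, and the others because they belong to the same metabolism. The values of the 8 genes between the groups are therefore a description, with standard errors but without a test.

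The cells came from mammary glands of virgin CD1 females aged 8 to 12 weeks, sorted as lineage-negative, CD24-positive and CD29-high, a gate enriched for stem cells that also holds other basal epithelial cells. They were embedded in Matrigel, a basement membrane gel, and all received 50 ng/ml EGF. The Wnt3A group had 200 ng/ml of purified Wnt3A, a secreted ligand of the canonical Wnt pathway, and the control group its vehicle, a CHAPS detergent solution. RNA was taken from colonies of passage 2, 6 to 7 days after replating, and hybridised to 1 Affymetrix mouse array per sample, giving 2 arrays a group (control 1 and 2, Wnt3A 1 and 2). Nothing in the labels ties a group's arrays to different animals or cultures, so p-values measure only the spread between these arrays, which may be technical. The number of arrays limits the precision.

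Sulfur enters this network as methionine, which is turned into homocysteine. Cystathionine beta-synthase (Cbs) joins homocysteine to serine, and cystathionine gamma-lyase (Cth) splits the product to give cysteine. Cysteine dioxygenase (Cdo1) oxidises cysteine to cysteine sulfinate, and cysteine sulfinate decarboxylase (Csad) turns that into hypotaurine, the precursor of taurine. Mercaptopyruvate sulfurtransferase (Mpst) passes on sulfur from a transamination product of cysteine, the mitochondrial dioxygenase Ethe1 oxidises persulfides made from hydrogen sulfide, and sulfite oxidase (Suox) makes sulfate. Selenbp1 binds selenium and oxidises methanethiol, a volatile sulfur compound, releasing hydrogen sulfide. Cdo1 is abundant in liver and fat tissue, and both Cdo1 and Selenbp1 are known for reduced expression in many carcinomas.

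The Selenbp1 result depends on how far the array separates that gene from its close copy Selenbp2. Array probes match transcripts, so upstream sequence cannot settle this. The upstream sequences of both genes are shown for comparison only. They are the 250 bases before the annotated start of transcription, from RefSeq on build GRCm38.p6, both on the plus strand, at chr3:94932833-94933082 for Selenbp1 and chr3:94693323-94693572 for Selenbp2. Capitals mark bases with no identical partner in a global alignment of the pair.
Selenbp1: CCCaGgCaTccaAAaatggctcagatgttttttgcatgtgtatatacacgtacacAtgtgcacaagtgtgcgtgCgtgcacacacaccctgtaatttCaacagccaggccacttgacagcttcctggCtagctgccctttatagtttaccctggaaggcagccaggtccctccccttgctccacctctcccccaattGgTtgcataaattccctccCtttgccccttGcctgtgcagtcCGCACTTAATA
Selenbp2: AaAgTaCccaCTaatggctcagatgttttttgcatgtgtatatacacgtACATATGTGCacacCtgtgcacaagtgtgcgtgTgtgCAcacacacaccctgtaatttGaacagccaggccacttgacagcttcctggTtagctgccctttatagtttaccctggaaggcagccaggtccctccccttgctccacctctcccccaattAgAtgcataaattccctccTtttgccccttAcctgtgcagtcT
In that alignment 223 positions were identical and 15 were mismatched, so 93.7% of aligned positions matched, and 24 bases stood opposite gaps. The likeness of these windows does not measure the likeness of the transcripts, which were not compared here. The array annotation had 0 probe sets with Selenbp2 as the single symbol. Of the 2 probe sets annotated as Selenbp1, 1450699_at was designed from a Selenbp1 transcript, while the design accession of 1417580_s_at belongs to Selenbp2 in the RefSeq gene table. Its suffix marks probes that can match more than 1 transcript. Values of 1417580_s_at are therefore uncertain as to which of the pair they report. Whether 1450699_at also picks up Selenbp2 was not checked.

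Cdo1 was strongly lower in both Wnt3A colonies, and no Wnt3A array came near a control. Its log2 values, each a difference from the median of the 4 arrays, were 0.76 and 2.31 for control 1 and control 2, and -0.83 and -0.76 for Wnt3A 1 and Wnt3A 2. The Wnt3A arrays lay within 0.07 of each other and at least 1.52 below the nearest control, while the controls were 1.55 apart with control 2 the higher. The group means were 1.53 ± 1.10 (SD, n = 2) for control and -0.79 ± 0.05 for Wnt3A. Wnt3A minus control was -2.33 ± 0.54 log2 units (SE of the limma fit), a 5.02-fold lower signal, which ranked 15 from the lowest of all 45037 probe sets. Without control 2 the difference was -1.55 and without control 1 it was -3.10, so its size rests on which control is used. Its direction could not change in this way, since the groups were separated. These are whole-colony RNA values, in which fewer cells expressing a gene and less RNA per cell cannot be told apart.

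Csad, which acts on the product of Cdo1, was lower in the same arrays by a smaller amount. It stood at 0.77 and 0.26 in control 1 and control 2 and at -0.39 and -0.26 in Wnt3A 1 and Wnt3A 2. The groups did not overlap, and here control 1 was the higher control. The difference was -0.84 ± 0.21 log2 units, or 1.79-fold, larger than the 0.51 between the controls, and 1.14% of all probe sets differed by as much or more in that direction. It was -0.59 without control 1 and -1.10 without control 2.

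**Figure D1:**
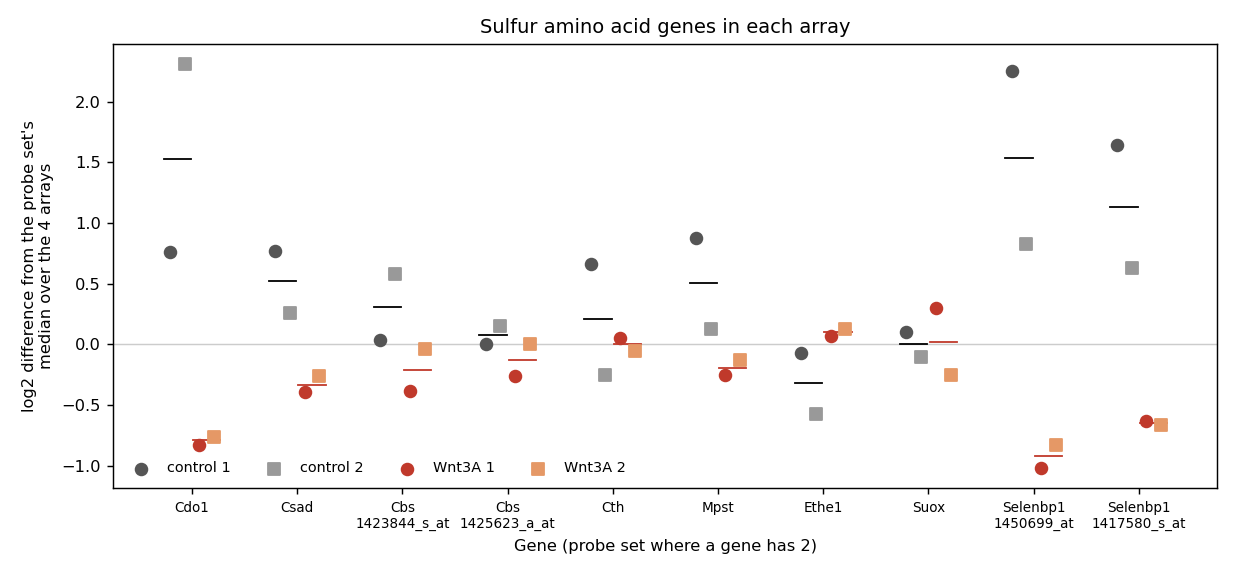
Log2 value of each array after subtraction of the probe set's 4-array median (vertical axis) for the 10 probe sets of the 8 genes (horizontal axis); points are single arrays and short bars are group means of 2 arrays. Cdo1 and both Selenbp1 probe sets have Wnt3A arrays close together at -0.63 or below and controls at 0.63 or above, with control 2 the highest for Cdo1 and control 1 the highest for Selenbp1.

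The transsulfuration enzymes, which make cysteine, differed little. Cbs probe set 1423844_s_at read 0.04 and 0.58 in the controls and -0.38 and -0.04 in Wnt3A 1 and Wnt3A 2. Its difference was -0.52 ± 0.25 log2 units, and its suffix too marks probes that can match more than 1 transcript. The arrays were separated by a gap of only 0.08, and the controls differed by 0.54, about as much as the groups. The other Cbs probe set, 1425623_a_at, differed by -0.21 ± 0.15, with Wnt3A 1 lowest at -0.26 and a gap of 0.01 between the nearest arrays of the groups. That separation was lost when each array was centred on its median or quantile normalized. Without control 2 the differences of the 2 Cbs probe sets were -0.25 and -0.14, and without Wnt3A 1 that of 1425623_a_at was -0.08. They were larger without control 1 for the former (-0.79) and without Wnt3A 2 for the latter (-0.34).

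Cth showed no steady difference. Its controls read 0.66 and -0.25, and its Wnt3A arrays 0.05 and -0.05. Control 1 was the highest and control 2 the lowest of the 4, so the Wnt3A arrays lay between the controls. The mean difference was -0.21 ± 0.33 log2 units, and it was 0.25 without control 1 and -0.66 without control 2.

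Of the enzymes of sulfur transfer and sulfide oxidation, Mpst lay lower and Ethe1 slightly higher with Wnt3A. Mpst control values were 0.88 and 0.13, and its Wnt3A values were -0.25 and -0.13. The groups were separate but control 1 carried most of the difference, which was -0.70 ± 0.29 log2 units in all, -0.32 without control 1 and -1.07 without control 2. For Ethe1 the controls were -0.07 and -0.57 and the Wnt3A arrays 0.07 and 0.13, a difference of 0.42 ± 0.21. It was the only member probe set with both Wnt3A arrays above both controls, and control 2 set most of its size, since the difference was 0.17 without that array and 0.67 without control 1. Suox, which completes the oxidation of sulfur to sulfate, had 0.10 and -0.10 for control and 0.30 and -0.25 for Wnt3A. Its Wnt3A arrays spanned the controls, and the difference was 0.02 ± 0.23.

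Selenbp1 gave the largest difference among the members. Probe set 1450699_at, designed from Selenbp1 itself, had control values of 2.25 and 0.83, and Wnt3A values of -1.02 and -0.83. Every control was at least 1.65 above every Wnt3A array. The means were 1.54 ± 1.01 (SD, n = 2) and -0.92 ± 0.13, and the difference was -2.46 ± 0.50 log2 units, a 5.5-fold lower signal that ranked 7 from the lowest of all probe sets. Without control 1 it was -1.75 and without control 2 it was -3.17. The shared probe set 1417580_s_at had the same order of controls, at 1.64 and 0.63, with -0.63 and -0.66 in the Wnt3A arrays. It differed by -1.78 ± 0.36, a 3.43-fold lower signal ranking 48 from the lowest, by -1.27 without control 1 and by -2.28 without control 2.

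**Figure D2:**
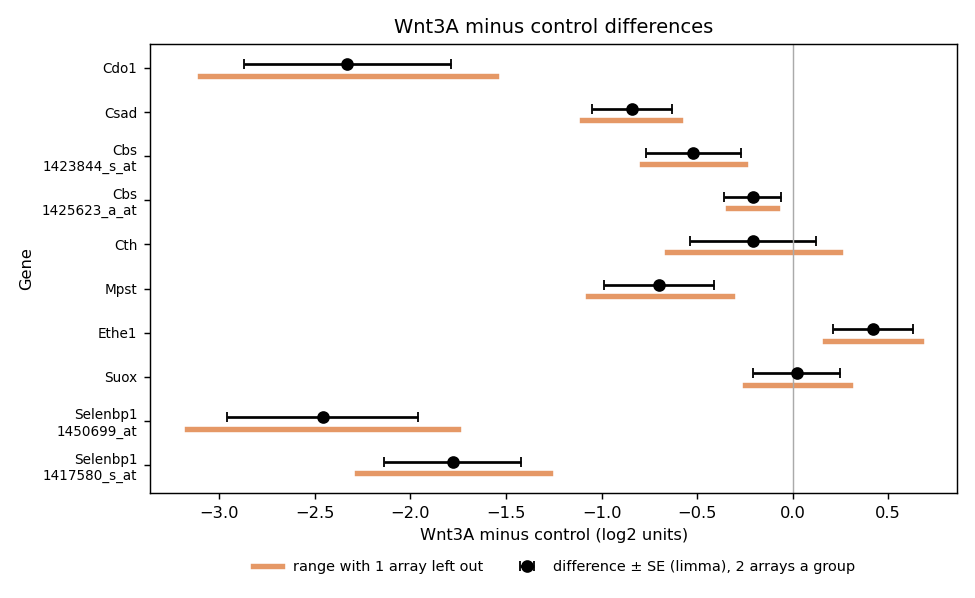
Wnt3A minus control in log2 units (horizontal axis) for each member probe set (vertical axis); points and black bars are the difference ± SE of the limma fit with 2 arrays a group, and orange bars span the 4 values with 1 array left out. The orange bars of Cdo1, Csad, Mpst, both Cbs and both Selenbp1 probe sets stay below 0, that of Ethe1 stays above 0, and those of Cth and Suox cross 0. Where the groups are separated, leaving out an array cannot take a bar across 0, so the side is no further result.

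By a level band read from the precision of the stored numbers, 6 of the member probe sets were at log2 8 or more and 4 at 4 to 8, so all 10 passed the filter on low values. This reading can place a probe set too high, so it does not show that a gene was well expressed.

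Across the set, 7 of the 10 probe sets, from Cdo1, Csad, Cbs, Mpst and Selenbp1, had both Wnt3A arrays below both controls, 1 had both above, and 2 were not separated. Among all 45037 probe sets, 16.3% were separated lower and 17.4% higher. Since the members were picked with this comparison known, nothing is read from that contrast. The median difference was -0.61 log2 units over the member probe sets and 0.007 over all probe sets. A difference of at least 1 log2 unit with separated groups was seen for 3 probe sets, those of Cdo1 and Selenbp1, where 0.617% of all probe sets met this limit in the lower direction. Over the whole table limma called 0 probe sets at an adjusted p under 0.05 (0.0%; smallest adjusted p = 0.51), and 6.22% had an unadjusted p under 0.05. Measured against the spread between arrays, 4 of the 10, from Cdo1, Csad and Selenbp1, were lower by more than the larger gap between arrays of a group, as were 11.1% of all probe sets. For Cbs, Cth, Mpst, Ethe1 and Suox the groups differed by less than 2 arrays of the same group did.

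**Figure D3:**
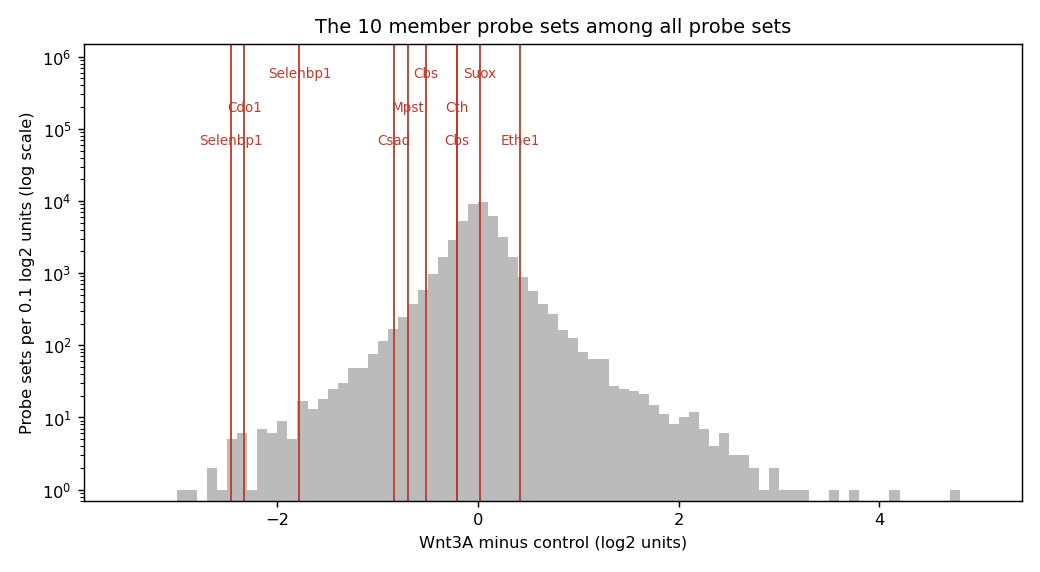
Number of probe sets (vertical axis, log scale) in steps of Wnt3A minus control difference in log2 units (horizontal axis) for all 45037 probe sets, with a red line at each member probe set. Cdo1 and Selenbp1 lie in the far left tail at -2.33, -2.46 and -1.78, and the other 7 lines lie between -0.84 and 0.42.

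The members did not share a single pattern over the controls. Of the 7 probe sets separated lower, 4 (both of Selenbp1, Csad and Mpst) were highest in control 1 and 3 (Cdo1 and both of Cbs) were highest in control 2. Wnt3A 1 was the lowest array for 6 of the 7, the exception being 1417580_s_at, where Wnt3A 2 was lower by 0.03. The Wnt3A arrays lay close together for Cdo1, Csad, Mpst, Ethe1 and Selenbp1, no further apart than 0.19, whereas the controls differed by 0.50 to 1.55.

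The array patterns closest to Cdo1 and Selenbp1 were looked up by Euclidean distance over the 4 centred values, among probe sets with a single gene symbol. Those nearest to Cdo1 were Fabp7, which encodes a fatty acid binding protein (distance 0.09 log2 units), Tspan8, which encodes a tetraspanin (0.22), Rflna (0.43), Hpgd, which encodes a prostaglandin-degrading dehydrogenase (0.48), and Thsd7a (0.53). Each had its highest value in control 2, between 1.89 and 2.71, like the 2.31 of Cdo1. Nearest to Selenbp1 1450699_at were Egln3, which encodes a prolyl hydroxylase (0.54), Ndrg1 (0.56), Frem2, which encodes a basement membrane protein (0.64), Gucy1b1, which encodes a subunit of soluble guanylate cyclase (0.69), and the ephrin receptor gene Epha7 (0.72). All 5 were highest in control 1, between 1.65 and 2.52. Closeness in these same 4 values was the rule of choice, so the shared peaks follow from it and are no further result. With 4 arrays such distances describe these samples only.

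**Figure D4:**
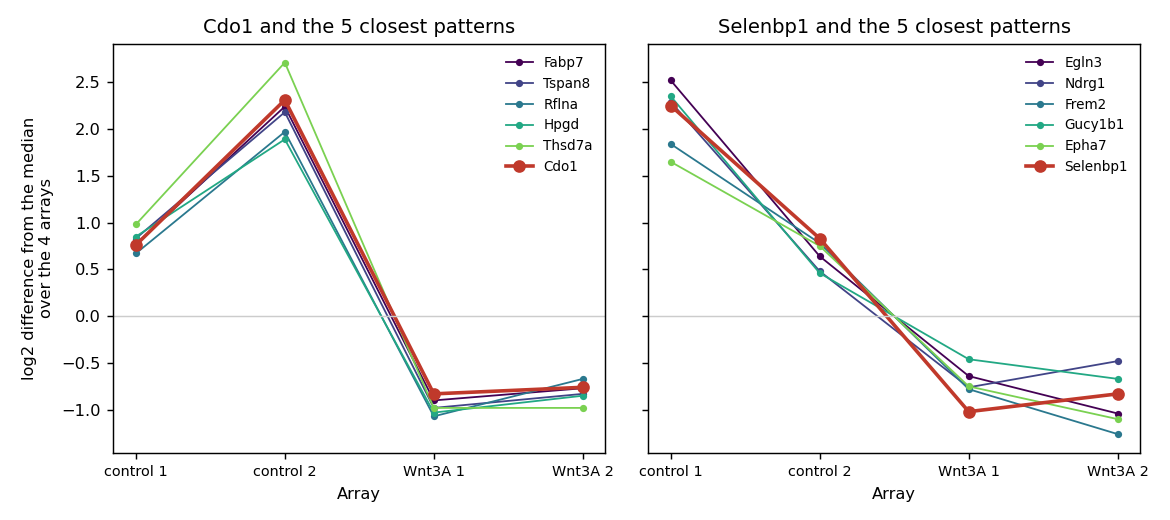
Log2 difference from the median over the 4 arrays (vertical axis) in each array (horizontal axis) for Cdo1 with its 5 closest patterns and for Selenbp1 with its 5; lines join the values of a probe set and carry no order in time. The Cdo1 group peaks in control 2 and the Selenbp1 group in control 1, and all lines lie below 0 in both Wnt3A arrays. The choice by closeness in these values fixes that likeness.

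Genes around the members were taken from 9 lists of 113 genes, of which 106 were matched on the array and 104 had a level high enough to be tested, each as 1 value per gene. At an adjusted p under 0.05 limma called 0 of the 104, as it did 0 of all 16964 genes (0.0%; smallest adjusted p = 0.22). An unadjusted p under 0.05 was reached by 15 of them and by 7.69% of all genes. The arrays separated higher with Wnt3A for 25 and lower for 18, against 17.1% and 18.3% of all genes, so values below are measured differences and not calls.

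The other genes of cysteine oxidation and taurine did not follow Cdo1 and Csad in size. Of its 7 genes 2 lay lower and 0 higher, and the median was -0.02. Ado, the other thiol dioxygenase, which oxidises cysteamine and protein N-terminal cysteine, differed by -0.28 ± 0.12, though by -0.05 when all 4 of its probe sets were averaged. Gadl1, a relative of Csad, differed by -0.12 ± 0.12. In the methionine cycle list, which feeds transsulfuration, 2 of 10 lay higher and 2 lower (median -0.06). Mtap, the methionine salvage phosphorylase, differed by 0.56 ± 0.16.

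In the list of sulfide oxidation and sulfur transfer, 2 of 6 lay higher and 0 lower (median 0.00), led by Tstd3, which encodes a rhodanese-domain protein, at 0.86 ± 0.15. Of 16 genes of cystine uptake and glutathione synthesis, the pathway that competes with Cdo1 for cysteine, 2 lay higher and 2 lower (median -0.03). Chac1, which cleaves glutathione, differed by 0.92 ± 0.15 and Ggct, which acts on its fragments, by 0.72 ± 0.25, the latter by 0.43 without Wnt3A 2, while Ggt5 and Chac2, which also cleave glutathione, differed by -0.36 ± 0.19 and -0.23 ± 0.13. The Ggt5 difference was -0.15 without Wnt3A 2, -0.56 without Wnt3A 1 and -0.11 when all 3 of its probe sets were averaged. Sulfate activation and sulfation genes, which use the product of Suox, had 4 of 14 higher and 4 lower (median -0.12). Sult2b1, the cholesterol sulfotransferase of stratified epithelium, had control values of -0.52 and -0.45 and Wnt3A values of 0.68 and 0.45, a difference of 1.05 ± 0.15, while Papss1, which makes the activated sulfate donor, differed by -0.36 ± 0.12.

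Suox needs molybdenum cofactor, and of 9 genes for that cofactor or for enzymes that carry it, 3 lay higher and 3 lower (median 0.05). Gphn, which inserts molybdenum, differed by -0.50 ± 0.17, and the molybdoenzyme genes Mtarc2 and Aox1 by -0.54 ± 0.15 and -0.56 ± 0.25, while Xdh, xanthine dehydrogenase, differed by 0.69 ± 0.16. Without control 2 the Aox1 difference was -0.31. Among 19 genes of selenium handling and selenoproteins, 4 lay higher and 2 lower (median 0.03). Selenop, the selenium transport protein, had control values of 0.33 and 1.38 and Wnt3A values of -0.47 and -0.33. That difference was -1.26 ± 0.37, and -0.73 without control 2, the array in which Cdo1 was also highest. Gpx2, a glutathione peroxidase of epithelia, differed by 0.94 ± 0.27.

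Cth is a known target of the amino acid stress factor ATF4, and of 14 genes of that response 4 lay higher and 1 lower. The median difference was 0.25 log2 units against -0.002 over all genes. Array medians were 0.02 and -0.21 for control 1 and control 2 and 0.10 and -0.01 for Wnt3A 1 and Wnt3A 2. Control 1 thus lay above Wnt3A 2. An unadjusted p under 0.05 in the limma fit was reached by 0 of the 14. Psat1, a serine synthesis enzyme, differed by 0.60 ± 0.27, by 0.25 without control 2 and by 0.95 without control 1. Vldlr, the lower one, differed by -1.01 ± 0.40, by -0.43 without control 1 and by -1.58 without control 2. As a check of the treatment, the canonical Wnt feedback genes had 4 of 9 higher and 2 lower (median 0.12). Axin2 probe set 1436845_at had control values of -0.58 and -1.18 and Wnt3A values of 1.20 and 0.58, a difference of 1.76 ± 0.32, while 1421341_at, in the lowest level band, differed by -0.12 ± 0.13. Lgr5, a receptor gene and canonical Wnt target, lay the other way, with control values of 0.35 and 0.39, Wnt3A values of -0.58 and -0.30 and a difference of -0.81 ± 0.15. Notum, which encodes a secreted Wnt deacylase, differed by 1.21 ± 0.27 and Znrf3, a ubiquitin ligase gene, by 0.41 ± 0.20, the latter by 0.19 without Wnt3A 2 and 0.63 without Wnt3A 1.

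**Figure D5:**
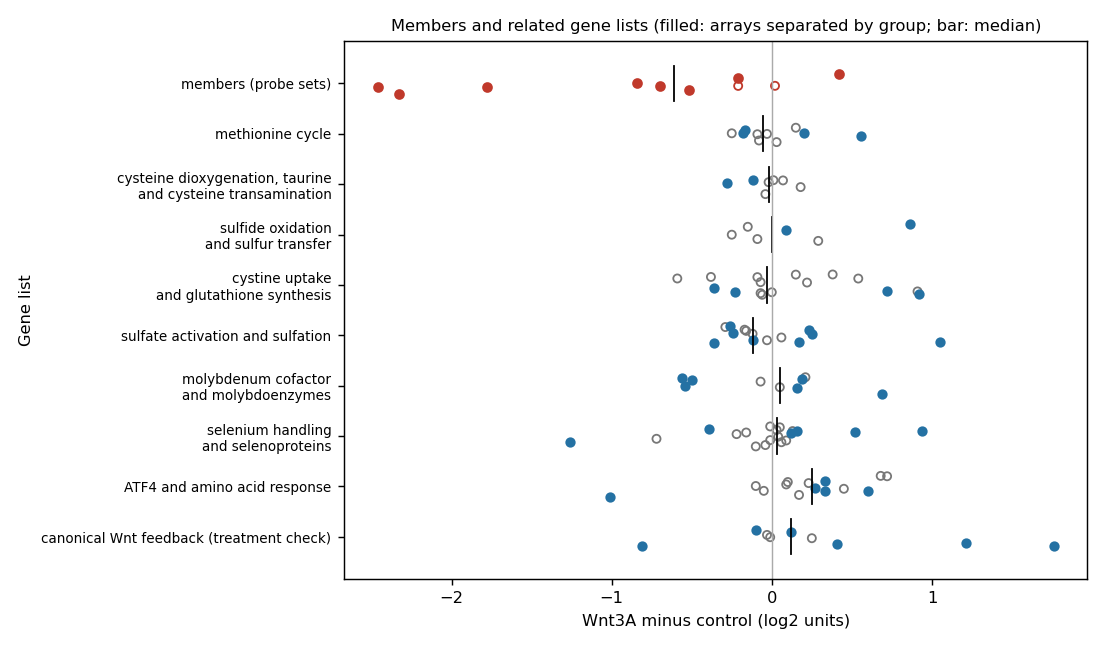
Wnt3A minus control in log2 units (horizontal axis) for the member probe sets and for the tested genes of the 9 related lists (vertical axis); filled points have both Wnt3A arrays on one side of both controls, open points do not, and black bars are medians. The list medians lie between -0.12 and 0.25, and the member median is -0.61. The member median is over probe sets, the list medians over genes, and Cdo1 and Selenbp1 were selected on this same difference, so nothing is read from that contrast.

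Markers of cell types that colonies could hold were set beside these values. For the counts below, 17.1% of all genes were separated higher and 18.3% lower. Levels had been removed from the deposited values, so a marker could not be shown to be at 0 and no summed level could be given. All 9 basal and 11 luminal markers tested fell in the band of log2 8 or more, although this reading can place a probe set too high. Luminal markers had 1 of 11 higher and 4 lower, with medians of 0.21 and 0.07 in the controls and 0.02 and -0.31 in the Wnt3A arrays. Of the 4 lower luminal markers, Foxa1 differed by -2.34 ± 0.49, Krt19 by -1.71 ± 0.79, Pgr by -1.25 ± 0.39 and Kit by -0.74 ± 0.34. Krt19 was barely separated, with 0.02 in control 1 and -0.02 in Wnt3A 1. Foxa1, Krt19 and Pgr were highest in control 2, at 1.47, 1.77 and 1.40, and Kit in control 1, at 0.41. Prom1, the higher marker, differed by 0.50 ± 0.20. Of those not separated, Krt8 and Krt18 differed by 0.23 and 0.17, and Cd14, Elf5, Esr1 and Gata3 by -0.07, -0.30, -0.80 and -0.16. Esr1 was also highest in control 2, at 1.38, while Cd14, Elf5 and Gata3 were lower in control 2 than in control 1. Without control 2 the differences of Krt19 and Pgr were -0.83 and -0.70, without Wnt3A 2 those of Krt19 and Kit were -0.91 and -0.30, and Pgr differed by -0.60 when all 3 of its probe sets were averaged. Squamous keratinocyte markers had 5 of 9 higher and 0 lower, with medians of -0.57 and -0.36 for the controls and 0.36 and 2.06 for the Wnt3A arrays. Of 7 adipocyte markers, 0 were separated in either direction, with array medians between -0.10 and 0.05. Fibroblast markers had 1 of 7 higher and 1 lower (median 0.03). Pdgfra, the lower one, differed by -1.76 ± 0.47, was highest in control 1, at 1.67, and differed by -1.14 without that array and by -0.76 when all 3 of its probe sets were averaged. Basal markers had 1 of 9 higher and 1 lower, with a median difference of 0.35. Their medians were -0.50 and 0.17 in the controls and -0.18 and 0.20 in the Wnt3A arrays. The higher one, Itgb1, differed by 0.67 ± 0.26. The lower one, Oxtr, ran against the list median at -2.60 ± 0.13, or -1.39 when both of its probe sets were averaged. Endothelial markers had 2 of 4 higher and 0 lower, and blood and immune markers 1 of 6 higher and 1 lower. The part of these cell types in the member values was not tested.

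The upstream windows of 6 of the 8 members, 10 windows from RefSeq, were searched for 4 motifs on both strands. The chromosome that holds Cdo1 was left out before the search, so Cdo1 was not looked up. Cth was not matched. Nothing is therefore said of the upstream sequence of Cdo1 or Cth. The motifs were the core letters of the TCF/LEF site, CTTTGA and CTTTGT, which differ in their last base, of the antioxidant response element, TGACNNNGC, and of the amino acid response element, TGATGNAA. Of the 32851 windows on the chromosomes that were kept, 13.8%, 16.5%, 10.2% and 3.45% held them, in that order. Among the 6 members searched, CTTTGT occurred in 1 of the 2 Csad windows, at -228 from the start, and TGACNNNGC in 1 of the 3 Mpst windows, at -12. The Csad window, at chr15:102205053-102205302 on the minus strand of GRCm38.p6, is shown because it holds the only TCF/LEF letters, in capitals.
Csad: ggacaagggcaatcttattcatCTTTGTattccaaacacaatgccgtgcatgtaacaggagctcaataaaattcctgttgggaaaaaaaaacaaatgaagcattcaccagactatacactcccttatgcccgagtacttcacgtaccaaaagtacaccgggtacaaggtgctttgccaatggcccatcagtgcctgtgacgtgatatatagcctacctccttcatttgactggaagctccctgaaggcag
The windows of Selenbp1, Cbs, Ethe1 and Suox held none of the 4, which says only that these letters are not in those 250 bases.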

How the data were processed

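RNA from 4 samples, 2 control and 2 Wnt3A, was measured on 1-colour Affymetrix mouse arrays. The submitters' processing notes name RMA, without a version, as the source of the authors' deposited log2 values. All 45101 rows had a median of 0 over the 4 samples, so each value is a difference and levels were removed; the centring step is recorded in no label. Array medians were between -0.016 and 0.02. The log2 base was taken from RMA.

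The members and lists were chosen with earlier results of these data known. Array controls were left out. The Wnt3A and control arrays were fitted by limma 3.58.1 under R 4.3.3 (lmFit, eBayes, two-sided, Benjamini-Hochberg, threshold 0.05, no covariate, 2 residual degrees of freedom) over 45037 probe sets, and over 16964 genes for the lists. An exact permutation test of 2 against 2 cannot go below a two-sided p of 0.33. A median level band (log2 8 or more, 4 to 8, below 4) was read from the storage precision of the values; a band may be read too high, never too low. Each gene's value averaged its single-symbol probe sets in its highest band, and genes below 4 were left out. "Separated" means both Wnt3A arrays on one side of both controls.

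Named were every member probe set, Axin2, and 5 closest patterns each for Cdo1 and Selenbp1. Genes of a related list were named from its up to 4 separated genes of largest absolute difference, and not all of these are given. The marker genes singled out were chosen after their values were seen. The fit was tested on simulated data. Alternatives were quantile normalization, centring, robust eBayes, the replicate block, each array left out, the level filter and the mean of all probe sets. Figures used matplotlib 3.10.9 under Python 3.11.15.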

Additional observations from a re-analysis of the deposited data

How the results depend on the processing

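The 7 member probe sets that were lower and Ethe1 kept the sign of their difference under all alternatives tried. Of these, robust eBayes, the replicate block and the level filter cannot change a difference. Where groups are separated, leaving out an array cannot reverse the sign, nor can averaging probe sets that are all lower. Only quantile normalization and centring could have done so. Sizes moved with an array left out: Mpst ranged from -1.07 to -0.32, Cbs 1423844_s_at from -0.79 to -0.25, Cbs 1425623_a_at from -0.34 to -0.08, and Cth, which was not separated, from -0.66 to 0.25. The mean of both Cbs probe sets was -0.36. The count separated lower was 6 after quantile normalization and after centring, 5 genes as the mean of all probe sets, and 7 to 8 with an array left out; the count separated higher was 1 to 2 with an array left out, where 3 arrays separate more easily. The related lists then had 29 to 37 genes separated lower and 45 and 52 higher without Wnt3A 2 and control 1, against 18 and 25. No probe set and no list gene passed the adjusted threshold under any alternative. Arrays of the same number deviated from their group means together (correlation 0.526 over probe sets), but the labels do not say what the number marks. With the replicate block the lower count was 7, the higher count 1, and 0 probe sets were called, with 4882 at an unadjusted p under 0.05 against 2801; 0 list genes were called. Leaving out an array assumes that the lone sample varies like the other group. Dim probe sets could not be judged by signal over background, since levels were removed.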
